A study of Mus musculus with 2 samples.

Results

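The tumor necrosis factor (TNF) superfamily was read in bone marrow stem and progenitor cells on a pair of Agilent arrays, the first from nondiabetic animals and the other from animals made diabetic with STZ. Its members were chosen by gene symbol alone (every gene named Tnfsf or Tnfrsf with a number, and Tnf, Lta, Ltb, Fas, Fasl, Cd40, Cd40lg, Cd27, Cd70, Ngfr, Ltbr, Edar and Eda2r), which gave 43 of the 21360 genes that could be named, 16 ligands and 27 receptors, on 54 probes. Another 2 symbols fit the rule but had no named probe and were not analysed here, among them Tnfsf13, the B cell survival ligand APRIL. The cells were LSK cells, a gate without lineage markers but with Sca-1 and c-kit that holds hematopoietic stem cells with their early progeny. They were sorted from C57BL/6J bone marrow after density separation and removal of dead cells. STZ is a toxin of pancreatic beta cells. The array labels give neither its dose, nor the age of the mice, nor what the nondiabetic mice received, and they name female mice where the study describes male mice. Each array held the amplified RNA of 3 pooled mice, so a condition has 1 measurement and no difference below has a replicate check.

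Ligands of this superfamily are mostly trimeric membrane proteins that act on neighbouring cells or after being shed, and their receptors cluster on binding. Receptors with a death domain can start apoptosis or inflammatory signaling, receptors with TRAF-binding tails feed NF-kB and kinase pathways, and decoy receptors bind ligand without passing the signal on. In marrow the family is known for restraining or expanding stem cells under inflammation (TNF, Fas), for costimulating lymphocytes (CD27, OX40, CD30, CD137), for B cell survival (BAFF and its receptors) and for bone resorption (RANK and its ligand).

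Values are background-subtracted intensities of the scanner software, in arbitrary units, always given as nondiabetic then diabetic. Ratios are diabetic over nondiabetic after dividing each array by its 75th percentile of 168 and 182, so that a ratio is slightly smaller than the bare intensities give. The error beside a log2 ratio is the SD of the scanner software's error model; it covers the spot, not the mice, the sort or the amplification. It was under 0.25 for 26 of the 27 members measured on both arrays. The software marked 62.7% of spots on the nondiabetic and 63.9% on the diabetic array as well above background, and no spot was saturated. Intensities of different genes come from different probes and are not ranked.

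The sorted cells carried the markers of their gate. Of 8 LSK genes, 7 were well above background on the nondiabetic and 8 on the diabetic array, among them Kit at 4635 and 4735 and Ly6a, which encodes Sca-1, at 475 and 701. Markers of other cells were present as well. T and NK cell markers were well above background for 8 of 10 and 7 of 10 genes, with summed intensities of 5000 and 4275. Those sums were mostly the brightest Nkg7 probe, at 3290.9 and 2582.5, while its second probe gave 103.4 and 204.5. B cell markers were well above background for 4 of 5 on both arrays, with sums of 209 and 294. Granulocyte and monocyte markers were so for 8 of 8 and 7 of 8, with sums of 43291 and 41936. These last sums were mostly the brightest Itgam probe, at 34686 and 35189, while further Itgam probes gave 111 and 49.2, and 284 and 142. By brightest probe, 7 of the 8 genes had a value below 0, with a median log2 ratio of -0.61, beside 0.02 over all named genes. Erythroid markers were well above background for 3 of 4 on both arrays, with sums of 2062 and 5040, mostly Hba-a1 at 1984 and 4967. The other measured markers, Epor and Klf1, did not rise with Hba-a1, at log2 ratios of -0.20 and -0.30. Stromal and endothelial markers were well above background for 4 of 7 on each array, with sums of 1287 and 2033, mostly Kdr and Pecam1. Of these genes 3 were so on both arrays, while Cxcl12 was so on the nondiabetic array only and Lepr on the diabetic array only. Kdr gave 844 and 848, but its second probe gave 3.00 and 2.61, with 0 of 10 spots well above background on either array. Pecam1 gave 162 and 936 while Cdh5 and Col1a1 were well above background on neither array. Dendritic markers were well above background for 3 of 4 and 2 of 4, among them Siglech (log2 ratio -0.10), whose second probe gave 6.02 and 18.9. Itgax gave 44.9 and 2.325, well above background on the nondiabetic array only, while Clec9a gave a log2 ratio of 0.66. Megakaryocyte markers were well above background for 4 of 4 on both arrays, 3 of them above 0, with a median log2 ratio of 0.53. The part of these other cells in the values below was not tested. Since these are bulk arrays, fewer cells of a type and less RNA per cell cannot be told apart.

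Most of the superfamily could be measured in these cells. Of the 43 members, 27 were well above background on both arrays and 11 on neither, beside 63.0% and 28.8% of all named genes. Receptors were measured on both arrays for 19 of 27, ligands for 8 of 16. A ligand or receptor seen on 1 array only has a bound in place of a ratio, written as "at least". These were Lta, Cd70 and Tnfrsf17 on the nondiabetic array and Tnfsf13b and Tnfsf15 on the diabetic array.

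**Figure D1:**
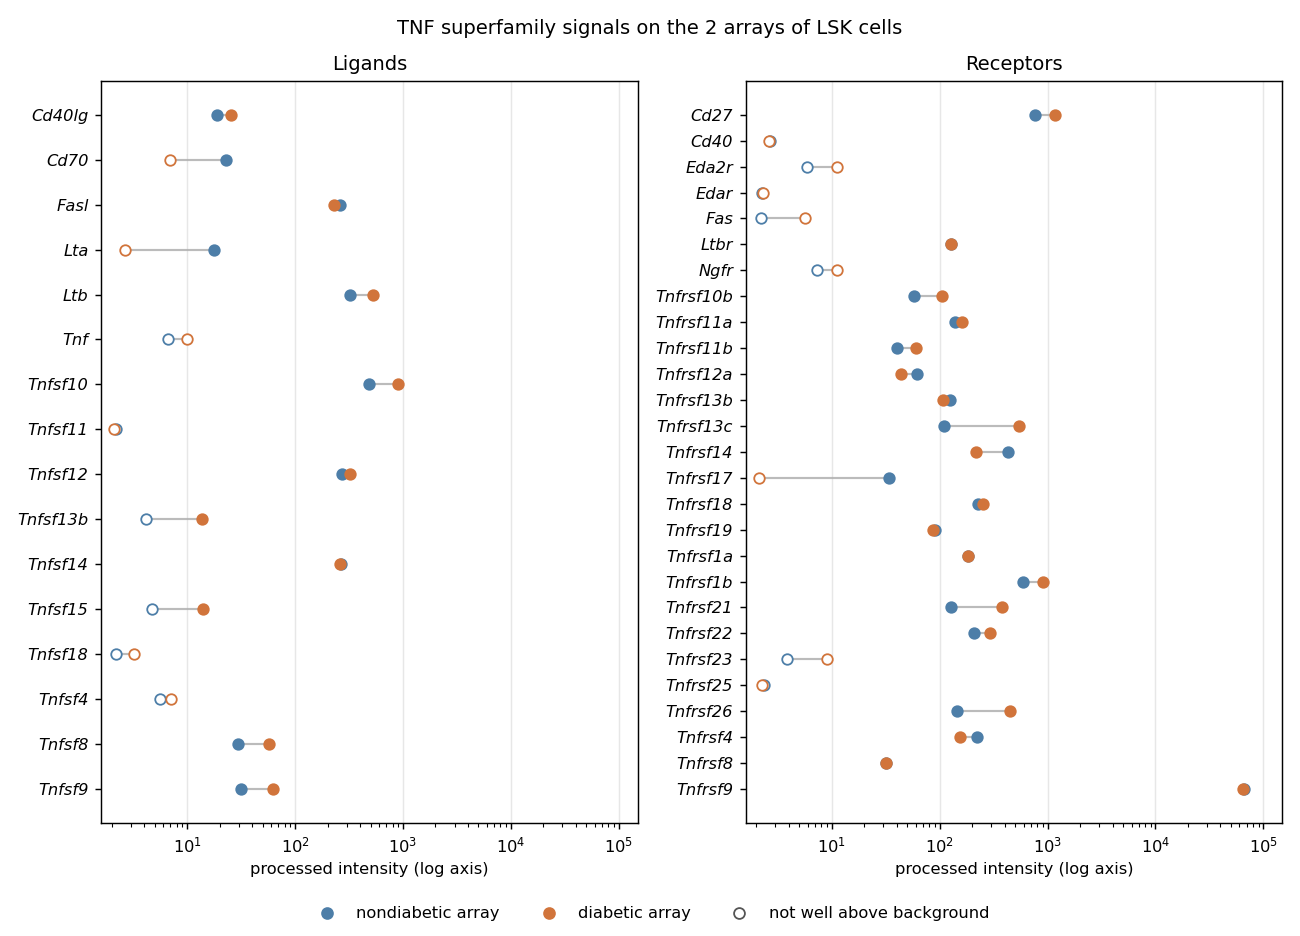
Processed intensity of each member's brightest probe (log axis, arbitrary units) on the nondiabetic (blue) and the diabetic array (orange), ligands left and receptors right; open circles were not well above background. Among the receptors Tnfrsf13c, Tnfrsf21 and Tnfrsf26 lie farther right on the diabetic array and Tnfrsf14 and Tnfrsf17 farther left.

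A ratio or bound was available for 32 members, and 26 of them lay within 2-fold; the other 6 made up 18.8%, beside 21.1% of all named genes. Among the 20 receptors with a value, 3 were at least 2-fold higher on the diabetic array (Tnfrsf13c, Tnfrsf26 and Tnfrsf21), or 15.0% beside 11.0% of all named genes with a value. Another 2 receptors were at least 2-fold lower (Tnfrsf14 and Tnfrsf17), where 10.1% of all genes were so. Among the 12 ligands with a value, 0 were at least 2-fold higher and 1 (Cd70) was at least 2-fold lower. The ligand shares were 0% and 8.33%. The median log2 ratio was 0.32 over the ligands and -0.04 over the receptors, with 0.02 over all named genes. Ligands lay above 0 in 8 cases and below 0 in 4, while receptors split into 10 and 10. Without the 4 bounds the ligand median was 0.46, and with every dim probe set to a floor it was -0.011, beside -0.14 over all genes. Under normexp, another background correction, Cd70, Tnfrsf14 and Tnfrsf17 came under 2-fold with the same sign, and the other 3 remained past it.

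**Figure D2:**
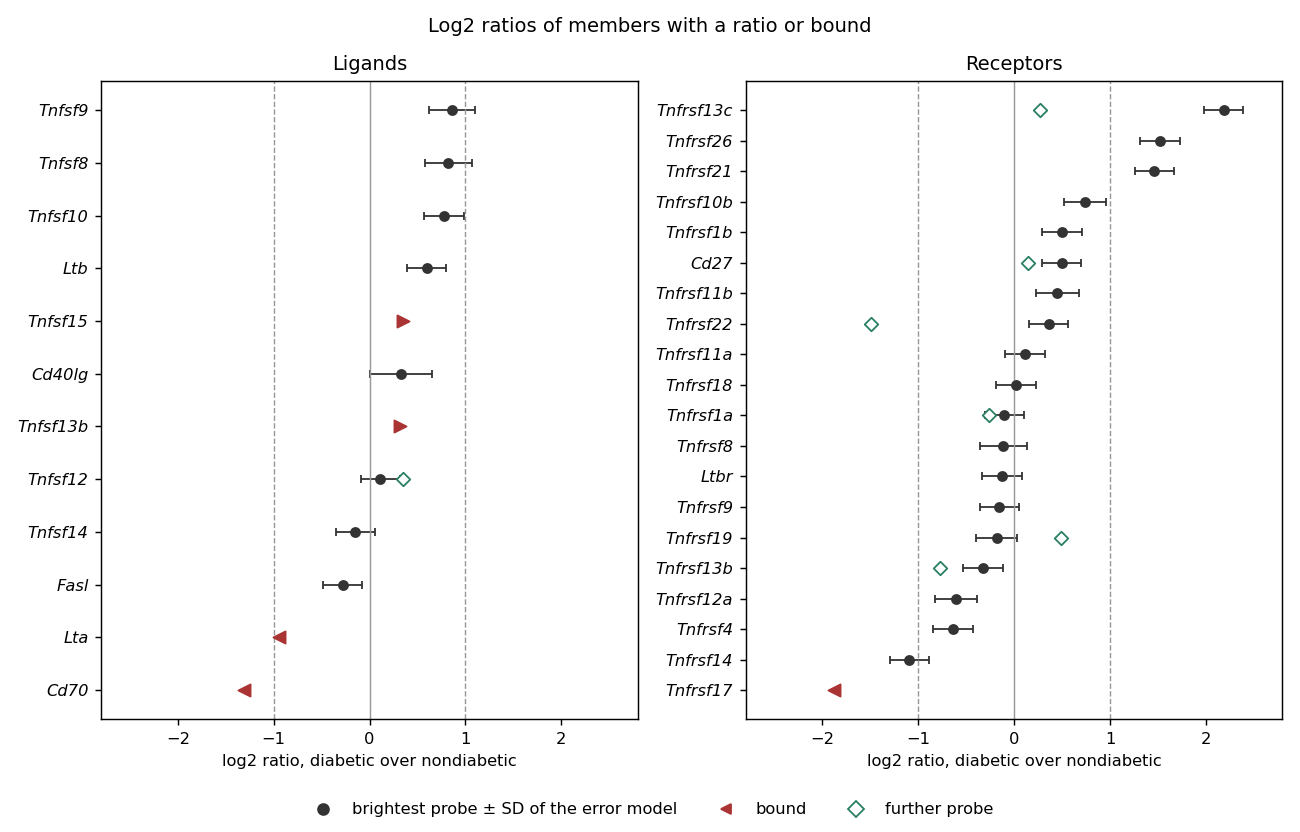
Log2 ratio, diabetic over nondiabetic, of the 32 members with a ratio or bound, ligands left and receptors right; black circles are the brightest probe with the SD of the scanner software's error model, red triangles bounds that point away from 0, green diamonds further probes, and dashed lines mark 2-fold. Of the genes with a further probe, Tnfrsf13c and Tnfrsf22 show the widest gaps between probes.

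**Figure D3:**
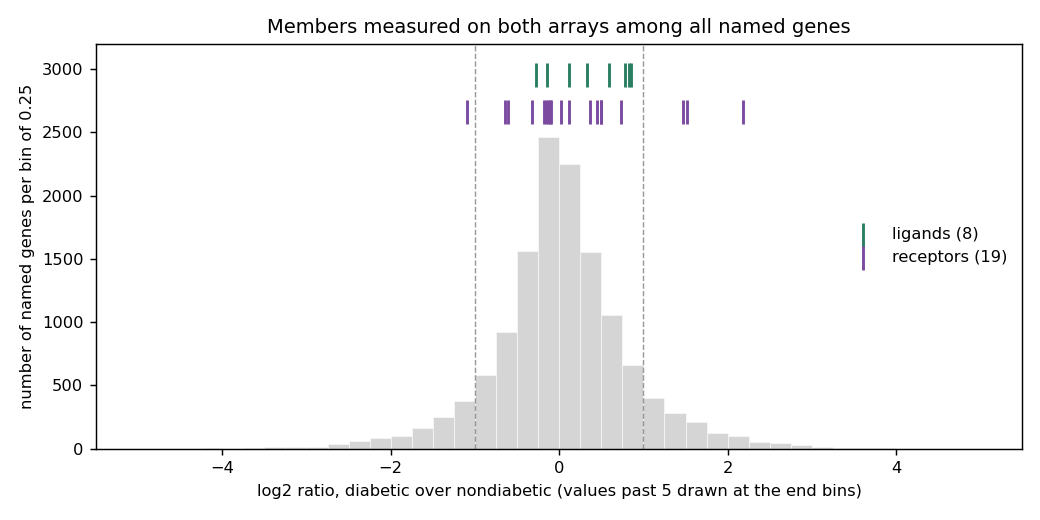
Number of named genes measured on both arrays per log2 ratio bin of 0.25 (grey bars), with the 8 ligands (green) and 19 receptors (purple) measured on both arrays as ticks; the height of the ticks carries no value and dashed lines mark 2-fold. The ticks lie in the body of the distribution, except for 3 receptors beyond the upper line and 1 just beyond the lower.

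The founding ligands of the family sit in 1 genomic cluster in the order Ltb, Tnf, Lta. Ltb, the membrane-bound lymphotoxin subunit, gave 323 and 529, a log2 ratio of 0.59 ± 0.20. Its neighbour Tnf, the inflammatory cytokine that gives the family its name, was well above background on neither array. Lta, the soluble lymphotoxin, went the other way from Ltb. It was measured on the nondiabetic array only, at 17.9 against 2.65, and was at least 1.93-fold lower on the diabetic array.

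Tnf and Lta were each printed in 10 spots, of which 8 remained after outlier spots were left out, so their readings can be followed spot by spot. The 8 Tnf spots lay between 3.75 and 9.97 (median 6.57) on the nondiabetic and between 6.89 and 13.1 (median 10.1) on the diabetic array. Of these spots 0 and 2 carried the flag for being well above background, or 0 and 3 of all 10. After scaling, 7 of the 8 spots were brighter on the diabetic array, by 0.48 on average with a spot-to-spot SD of 0.46 (log2), and the ranges of the arrays overlapped. No fold is given for Tnf, since on neither array did most of its spots carry that flag.

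The Lta spots did not overlap. They ran from 14.0 to 21.5 on the nondiabetic array, with 8 of 8 flagged, and from 2.14 to 3.72 on the diabetic array, with 0 of 8 flagged. Negative control spots had medians of 2.35 and 2.32, so that Lta on the diabetic array sat near their level.

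**Figure D4:**
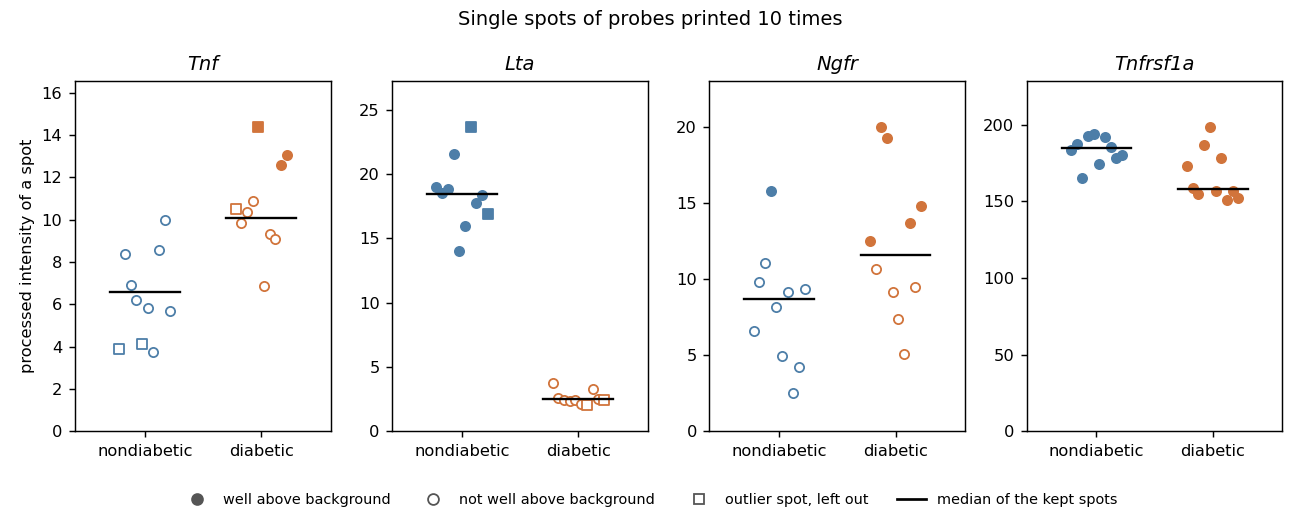
Processed intensity (linear axis from 0, arbitrary units) of the single spots of the 4 members with a probe printed 10 times, on the nondiabetic (blue) and the diabetic array (orange); filled symbols were well above background, squares were outlier spots left out, and bars are medians of the kept spots. Lta spots separate the arrays, whereas those of Tnf, Ngfr and Tnfrsf1a overlap.

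The stretch before the transcription start is shown for Ltb and Tnf, neighbours in this cluster, and for Tnfrsf13c and Tnfrsf21, receptors past 2-fold for which the promoter table had an entry that overlaps no annotated gene. The sequences are RefSeq's for the build GRCm38.p6, the 250 bases before the start, from 5' to 3' on the strand of the gene. Capitals mark a match to the NF-kB consensus or to TATAAA on either strand. Ltb lies at chr17:35194257-35194506 (plus strand), Tnf at chr17:35202008-35202257 (minus), Tnfrsf13c at chr15:82224381-82224630 (minus) and Tnfrsf21 at chr17:43016305-43016554 (plus).
Ltb: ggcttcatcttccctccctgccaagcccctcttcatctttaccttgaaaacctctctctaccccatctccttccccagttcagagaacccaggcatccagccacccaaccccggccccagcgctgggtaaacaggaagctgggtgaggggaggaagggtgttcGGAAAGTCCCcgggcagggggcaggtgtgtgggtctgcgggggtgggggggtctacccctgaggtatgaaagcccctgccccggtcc
Tnf: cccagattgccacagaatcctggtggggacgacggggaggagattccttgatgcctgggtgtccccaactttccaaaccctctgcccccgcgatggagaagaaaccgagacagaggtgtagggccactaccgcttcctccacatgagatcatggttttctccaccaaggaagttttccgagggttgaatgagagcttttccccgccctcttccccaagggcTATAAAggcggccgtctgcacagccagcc
Tnfrsf13c: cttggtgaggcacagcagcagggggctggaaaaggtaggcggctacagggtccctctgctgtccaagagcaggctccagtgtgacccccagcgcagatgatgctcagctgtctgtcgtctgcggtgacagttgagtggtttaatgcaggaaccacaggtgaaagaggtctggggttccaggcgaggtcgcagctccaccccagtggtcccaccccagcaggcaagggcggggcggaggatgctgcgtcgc
Tnfrsf21: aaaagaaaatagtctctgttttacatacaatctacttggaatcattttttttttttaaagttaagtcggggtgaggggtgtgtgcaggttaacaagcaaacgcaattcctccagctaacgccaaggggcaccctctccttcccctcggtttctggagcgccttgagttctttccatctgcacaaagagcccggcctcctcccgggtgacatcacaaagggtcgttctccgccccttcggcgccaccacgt
The Ltb window held an NF-kB match that begins 87 bases before the start, and the Tnf window a TATAAA that begins 29 bases before it. The windows of Tnfrsf13c and Tnfrsf21 held neither motif. Over all 32851 promoters of the table, 3.90% held the NF-kB consensus and 12.4% held TATAAA. The 33 members with an entry had 37 promoters in it. Of these promoters, 3 held the NF-kB consensus (Ltb, Tnfrsf8 and Tnfrsf9) and 7 held TATAAA (Eda2r, Lta, Tnf, Tnfrsf17, Tnfrsf23, Tnfsf11 and Tnfsf18). A match describes the letters only and is no evidence of binding.

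Both death ligands were measured, and they differed in direction. Tnfsf10, which encodes TRAIL, gave 481 and 893, a log2 ratio of 0.78 ± 0.20. Fasl, the ligand of Fas, gave 259 and 231, a log2 ratio of -0.28 ± 0.20. Tnfsf14, which encodes LIGHT, a ligand shared by the lymphotoxin receptor and HVEM, was nearly level at 264 and 258 (-0.15 ± 0.20).

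The ligands that costimulate T cells were measured on both arrays for 3 of 7 and on 1 array for 2 more. Tnfsf9, the CD137 ligand, gave 31.5 and 61.9, a log2 ratio of 0.86 ± 0.24. Tnfsf8, the CD30 ligand, gave 29.9 and 57.3, a log2 ratio of 0.82 ± 0.24. Both lay just inside the 2-fold limit. Cd40lg, the helper T cell signal to B cells, gave 18.8 and 25.6 with the widest error among the members measured on both arrays (0.33 ± 0.32). Cd70, the ligand of CD27, gave 23.1 and 6.99 and was at least 2.49-fold lower on the diabetic array, where it was not well above background. Tnfsf15, which encodes TL1A, went in the other direction, from 4.76 to 14.1, at least 1.27-fold higher. Neither Tnfsf4, the OX40 ligand, nor Tnfsf18, the GITR ligand, was well above background on either array.

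Neighbours in the genome were also set side by side. Tnfsf9, Cd70 and Tnfsf14 follow each other in the reference annotation, and their log2 values were 0.86, a bound of -1.31 and -0.15. Tnfsf15 and Tnfsf8, also neighbours, were both higher on the diabetic array, with a bound of 0.35 and a log2 ratio of 0.82. Of the 10 T and NK cell markers 9 had a ratio or bound, of which 8 were below 0 and 2 at least 2-fold lower. Of all named genes with a value, 7419 of 15192 lay below 0 and 10.1% were at least 2-fold lower. These counts take the brightest probe. Nkg7 gave a log2 ratio of -0.47 on that probe and 0.87 on its second. The second probes of Cd4 (0.30) and Cd2 (a bound of 0.33) also lay above 0. Cd3d gave 25.4 and 9.67 and Cd3g 25.4 and 2.11, both well above background on the nondiabetic array only, and Klrb1c was so on the diabetic array only, at 10.9 and 15.9. Cd4 (-0.05), Lck (-0.06) and Cd2 (-0.07) were nearly level, Cd3e gave 238 and 198, and Cd8a was well above background on neither array. Their part in the values of Cd70 and Lta was not tested.

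The remaining ligands act on B cells, bone and tissue repair. Tnfsf13b, which encodes the B cell survival factor BAFF, gave 4.17 and 13.8 and was at least 1.24-fold higher on the diabetic array, the sole array where it was well above background. Tnfsf12, which encodes TWEAK, gave 273 and 321, a log2 ratio of 0.11 ± 0.20, and its second probe gave 123 and 171 (0.35). Tnfsf11, which encodes the osteoclast factor RANKL, was well above background on neither array. The 4 ligands in that position (Tnf, Tnfsf4, Tnfsf11 and Tnfsf18) had intensities of 2.19 to 6.65 on the nondiabetic and 2.11 to 10.1 on the diabetic array.

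Among receptors with a death domain, Tnfrsf21 stood out. It encodes DR6, a receptor that can trigger cell death and restrains lymphocyte responses, and it gave 126 and 378, a log2 ratio of 1.46 ± 0.21 or 2.76-fold. Tnfrsf10b, the TRAIL receptor of the mouse, gave 57.8 and 105 (0.74 ± 0.22). Tnfrsf1a, the widely expressed TNF receptor, gave 182 and 184, a log2 ratio of -0.10 ± 0.21. A second Tnfrsf1a probe printed in 10 spots lay between 166 and 194 on the nondiabetic and between 151 and 199 on the diabetic array. Its log2 ratio was -0.26 with a spot-to-spot SD of 0.10, and 0 of its 10 spots were brighter on the diabetic array after scaling.

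The other 4 death domain receptors were well above background on neither array. They were Fas, the receptor of Fasl; Tnfrsf25, the receptor of TL1A; Ngfr, a neurotrophin receptor; and Edar, a receptor of ectodermal development. Fas was printed in 2 spots, at 2.15 and 2.30 on the nondiabetic and 4.35 and 7.45 on the diabetic array. Ngfr lay near the limit, with 1 of 10 spots flagged on the nondiabetic and 5 of 10 on the diabetic array, between 2.50 and 15.8 and between 5.05 and 20.0. Spots of Ngfr overlapped between the arrays.

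Decoy receptors showed small differences or differed between probes. Tnfrsf11b, the soluble decoy osteoprotegerin that captures RANKL, gave 40.4 and 59.9, a log2 ratio of 0.45 ± 0.23. Tnfrsf22, a TRAIL decoy of the mouse, gave 209 and 291 on its brightest probe (0.36 ± 0.21). On its second probe it gave 134 and 51.5, a log2 ratio of -1.49 ± 0.22, so its probes point in opposite directions and its direction is uncertain. Tnfrsf23, the neighbouring decoy, was well above background on neither array.

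Tnfrsf26, the third gene of that mouse cluster, was the second receptor past 2-fold. It gave 145 and 451, a log2 ratio of 1.52 ± 0.21 or 2.87-fold, on 1 probe printed once. The cluster members thus gave 1.52 (Tnfrsf26), 0.36 or -1.49 (Tnfrsf22) and no ratio (Tnfrsf23). These genes are close relatives, and whether a probe also binds a neighbour's transcript was not tested.

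Receptors of the B cell branch held both extremes. Tnfrsf13c, the BAFF receptor, gave 111 and 547, a log2 ratio of 2.19 ± 0.21 or 4.55-fold, on its brightest probe. Its second probe gave 71.7 and 94.0, a log2 ratio of 0.27 ± 0.21. Both Tnfrsf13c probes were higher on the diabetic array, but the size of the difference rests on 1 spot. Tnfrsf17, which encodes BCMA, a receptor of plasma cells, gave 34.1 and 2.12 and was at least 3.68-fold lower, with the diabetic value at the level of negative controls.

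Tnfrsf13b, which encodes TACI, gave 124 and 107 (-0.32 ± 0.21), and its second probe gave 108 and 68.7 (-0.77 ± 0.21). Cd40, which receives T cell help on B cells, was well above background on neither array, at 2.69 and 2.61. The B cell markers did not move as one beside these receptors. Cd79a gave 39.3 and 121 (1.51 ± 0.22), while Cd79b gave 102 and 84.5 (-0.39 ± 0.21) and Ms4a1, which encodes CD20, was well above background on neither array. Their part in the value of Tnfrsf13c was not tested.

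All 6 receptors of the T cell costimulation branch were measured on both arrays, with a median log2 ratio of -0.13. Tnfrsf14, which encodes HVEM, a receptor of LIGHT and of inhibitory partners, gave 430 and 219, a log2 ratio of -1.09 ± 0.20 or 2.13-fold lower. A second Tnfrsf14 probe was not well above background, at 6.995 and 11.7. Tnfrsf14 thus lies close to the limit of 2-fold, and Tnfrsf4, which encodes OX40, stayed inside it at 224 and 156 (-0.64 ± 0.21). Cd27, which marks early progenitors as well as lymphocytes, gave 768 and 1176 (0.50 ± 0.20), and 760 and 913 on its second probe (0.15).

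The remaining costimulatory receptors differed little. Tnfrsf18, which encodes GITR, gave 228 and 251 (0.02 ± 0.21). Tnfrsf8, which encodes CD30, gave 31.9 and 32.0 (-0.11 ± 0.24). Tnfrsf9, which encodes CD137, gave 66417 and 64768 on its brightest probe (-0.15 ± 0.20), whereas its second probe was not well above background, at 2.46 and 6.23. The level of Tnfrsf9 is therefore uncertain.

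Other TRAF-binding receptors lay within 2-fold. Tnfrsf1b, the TNF receptor of blood and immune cells, gave 592 and 907 (0.50 ± 0.20). Ltbr, the lymphotoxin receptor, was level at 127 and 126 (-0.13 ± 0.21). Tnfrsf11a, which encodes RANK, gave 138 and 162 (0.11 ± 0.21). Tnfrsf12a, the TWEAK receptor Fn14, was lower, at 62.2 and 44.3 (-0.61 ± 0.22). Tnfrsf19 gave 90.4 and 86.4 (-0.18 ± 0.21), and its second probe, at 39.8 and 60.6, pointed the other way (0.49). Eda2r was well above background on neither array. Over all 7 receptors in that position, intensities were 2.22 to 7.26 on the nondiabetic and 2.28 to 11.3 on the diabetic array.

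Of the 7 members with 2 measured probes, 2 had probes that differed by more than 2-fold (Tnfrsf13c and Tnfrsf22). Among all named genes with 2 measured probes this held for 30.7%, or 996 of 3245. Of the 27 members measured on both arrays, 18 had a log2 ratio larger than the SD of the error model, which says nothing about the spread between mice. The same count over all named genes is not given here, so the member count is not read as a trait of the family.

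Ligands and receptors were then set beside each other for the 22 known pairs with named probes. Both partners were measured on both arrays in 7 pairs. TRAIL and its receptor were both higher, with log2 ratios of 0.78 (Tnfsf10) and 0.74 (Tnfrsf10b), each beyond the SD of the error model. In the other 6 pairs at least 1 partner lay within that SD of 0. Tnfsf14 (-0.15) stood beside Tnfrsf14 (-1.09) and Ltbr (-0.13). Ltb (0.59) stood beside Ltbr, Tnfsf8 (0.82) beside Tnfrsf8 (-0.11), Tnfsf9 (0.86) beside Tnfrsf9 (-0.15), and Tnfsf12 (0.11) beside Tnfrsf12a (-0.61).

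In 6 further pairs the receptor was measured on both arrays and the ligand on neither. TNF is an example, with Tnfrsf1a and Tnfrsf1b measured and Tnf not, and RANKL another, with Tnfrsf11a and Tnfrsf11b measured. The reverse held for 2 pairs, Fasl with Fas and Cd40lg with Cd40. In the remaining 7 pairs a partner was measured on 1 array only. BAFF was so on the diabetic array, beside Tnfrsf13c higher and Tnfrsf17 lower there, and Cd70 on the nondiabetic array, beside Cd27 on both.

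Proteins that carry the receptor signal inside the cell were read from a list of 25 genes, adaptors, ubiquitin ligases and kinases with the sheddase Adam17, which releases TNF from the membrane. All 25 were measured on both arrays. At least 2-fold higher were 2 of 25, beside 11.0% of all genes, and at least 2-fold lower were 5 of 25, beside 10.1%, with a median log2 ratio of -0.25. These counts take the brightest probe and include Tank among the higher and Map3k7 among the lower, whose further probes point the other way. The mean over probes gave 1 higher and 4 lower, and under normexp 0 were at least 2-fold higher. Ripk1, the kinase that TNFR1 recruits to choose between survival and cell death, gave 2430 and 133, a log2 ratio of -4.31 ± 0.21 or 19.8-fold lower, on 1 probe printed once.

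Other members of the TNFR1 complex were divided. Traf2, an adaptor of many receptors of the family, gave 90.5 and 277 (1.50 ± 0.21). Traf5, a relative of Traf2, gave 186 and 48.3 (-2.06 ± 0.21), and Birc2, the ubiquitin ligase cIAP1, gave 215 and 85.6 (-1.44 ± 0.21). Rbck1, a subunit of the linear ubiquitin ligase, gave 1074 and 533 (-1.13 ± 0.20), while its partners Rnf31 (-0.25) and Sharpin (0.58) lay within 2-fold.

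Probes of 3 adaptor genes pointed in opposite directions. Map3k7, which encodes the kinase TAK1, gave 412 and 96.2 on its brightest probe (-2.22 ± 0.21) and log2 ratios of 0.51 and 0.33 on the others. Tank, a TRAF-binding regulator, gave 75.6 and 166 (1.02 ± 0.21) and -0.84 on its second probe. Cflar, the caspase 8 inhibitor FLIP, gave -0.67 on its brightest probe and 0.79 and 1.80 on the others. The direction of these genes is therefore uncertain, also where they were counted above. Fadd (-0.02), Tradd (-0.34), Casp8 (-0.54), Birc3 (-0.02), Tnfaip3 (-0.66) and Adam17 (-0.18) lay within 2-fold.

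**Figure D5:**
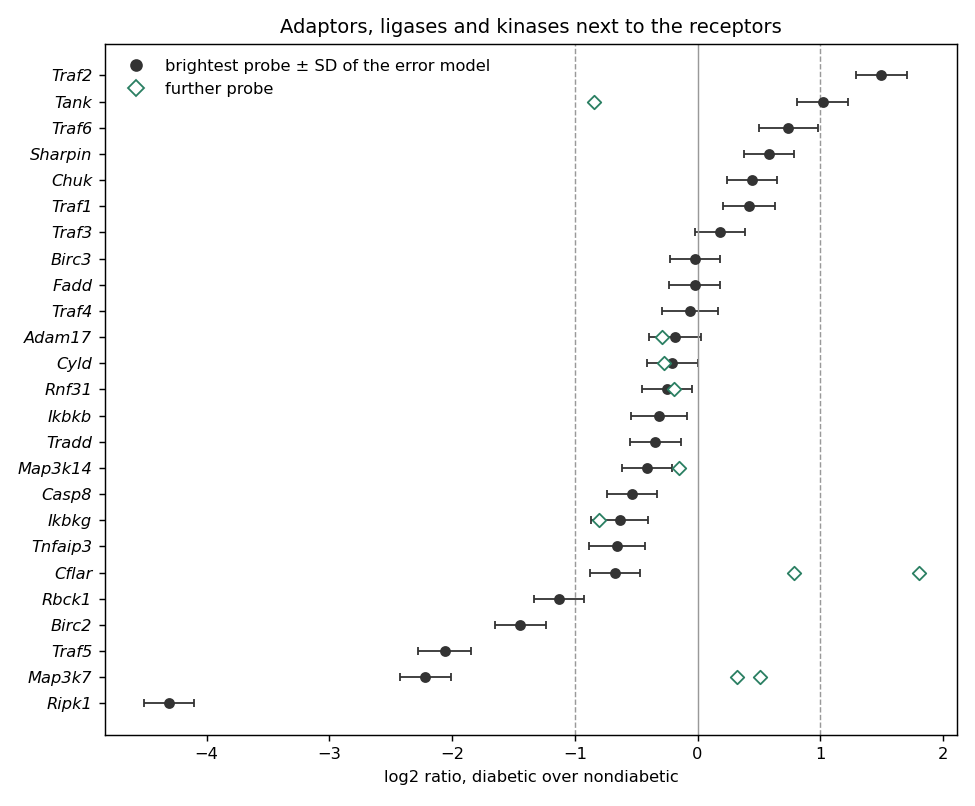
Log2 ratio, diabetic over nondiabetic, of the 25 adaptor, ligase, kinase and sheddase genes, ordered by value; black circles are the brightest probe with the SD of the scanner software's error model, green diamonds further measured probes, and dashed lines mark 2-fold. Among the circles Ripk1 lies lowest at -4.31 and Traf2 highest at 1.50, and the diamonds of Map3k7, Tank and Cflar lie on the other side of 0 from their circles.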

How the data were processed

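Gene expression in sorted LSK cells was measured on 2 one-colour Agilent arrays, 1 per condition, each with RNA of 3 pooled mice (8.3 ng, amplified, Cy3). The authors deposited scanner files made with Agilent Feature Extraction 11.5.1.1, whose processed intensity is background-subtracted within an array and not normalized between arrays. A further deposited table repeats this intensity, scaled by a constant for each array. The array grid refers to mm9.

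Outlier spots of an array were removed from the other array too, and log2 intensities were centred on each array's 75th percentile. A probe was well above background where more than 0.5 of its spots carried the flag. Bounds use the higher of the dim probe's value and the lowest probe well above background (10.2 and 10.1). Unversioned transcript identifiers, matched to a RefSeq table of GRCm38.p6, named 28319 of 55661 probes, and the brightest probe stood for a gene. Every member was given, with both values where measured; outside the family, adaptor genes past 2-fold and lineage markers beside a member were named, and Rnf31, Sharpin, Cflar, Fadd, Tradd, Casp8, Birc3, Tnfaip3 and Adam17 were added after their values were seen. Members and lists were chosen with earlier results of these data known.

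With 1 array per condition no test was made, and that number limits the precision. The arrays shared a slide and a scan. Alternatives were quantile normalization, median centring, normexp (offset 50, on median signals), 3 treatments of dim probes, the mean over probes and the authors' table. The steps were tested on simulated data. Python 3.11.15, numpy 2.4.6, pandas 2.3.3, matplotlib 3.10.9, R 4.3.3 and limma 3.58.1 were used.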

Additional observations from a re-analysis of the deposited data

How the results depend on the processing

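The 6 members at least 2-fold apart stayed past that limit under quantile normalization. The mean over a gene's probes also kept them there, but among them it changed only Tnfrsf13c, to a log2 ratio of 1.23. Dropping the filter on dim probes only replaced the bounds of Cd70 and Tnfrsf17 with larger differences. Keeping outlier spots, chosen after seeing the data, could not change the 6, since each rests on 1 spot that was no outlier. Median centring, which moves all genes alike, the authors' table, which is the same intensity times a constant, and the floor, which the bounds already use, gave the same 6 but could hardly change them. Under normexp with an offset of 50, 3 remained and Cd70, Tnfrsf14 and Tnfrsf17 kept their sign under 2-fold. Counts then came to 0 lower ligands (1 in the report), 0 lower receptors (2) and 0 higher adaptor genes (2), with a ligand median of 0.12 (0.32); an offset draws dim ratios toward 0, and all genes past 2-fold went from 1667 higher and 1538 lower to 597 and 497. Restricted to probes flagged well above background on each of the arrays, 0 ligands and 1 receptor were lower and the ligand median was 0.46. Without a filter on dim probes, 2 ligands were higher and 2 lower and 5 receptors were higher, adding Fas, Lta, Tnfrsf23, Tnfsf13b and Tnfsf15. A floor for dim probes brought the ligand median to -0.011, where the median of all genes moved to -0.14, so the ligand median depends on how dim probes are treated. The mean over probes left 1 higher adaptor gene. The next brightest probe, also chosen after seeing the data, reversed Tank (-0.84) and Map3k7 (0.51). It also changed the sign of Cflar (1.80), Tnfrsf22 (-1.49) and Tnfrsf19 (0.49), and Tnfrsf22 was newly past 2-fold. Of the 6 members past 2-fold, 5 had no second measured probe and could not be checked this way. The other, Tnfrsf13c, came under 2-fold at 0.27, so 0 of the 6 remained past the limit. No paired analysis was possible because the groups hold a single array apiece, which also means that none could be left out. Depth of signal limits 11 members that were well above background on neither array. All probes measured on both arrays were split by intensity into 3 equal groups, and those printed at least 5 times were read in each. Their median spot-to-spot SD was 0.26 (log2) for the 88 in the dimmest group and 0.07 for the 70 in the brightest.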
